A study of Mus musculus with 7 samples.

Results

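The 10 genes described here encode the chains of the collagens that build and coat the interstitial fibril: Col1a1 and Col1a2 of type I, Col3a1 of type III, Col5a1, Col5a2 and Col5a3 of type V, Col6a1, Col6a2 and Col6a3 of type VI, and Col12a1 of type XII. They were chosen by name, with earlier results of these data known, as 10 of the 55487 genes in the count table, 26086 of them with any count. Precision-cut liver slices (PCLS) of healthy male Balb/c mice, 250 µm thick and 3 mm wide, were kept on a shaker for 3 days, either without additive (CTR, 3 libraries) or with valproic acid at 2.5 mM (VPA, 4 libraries), a drug that inhibits class I histone deacetylases. No genetic change or other agent separated the groups. By the study's methods, VPA was already in the Williams' medium in which its slices were cut. A slice holds all cells of the liver, so fewer cells of a type and less RNA per cell cannot be told apart in any value given here. The question the comparison addressed was whether VPA changed the response of the slices to cutting, in which hepatic stellate cells turn into collagen-making myofibroblasts.

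Fibrillar collagen is made as procollagen chains that join in threes from their C-terminal ends, wind into a triple helix and assemble into fibrils after the end pieces have been cut off. Type I joins a pair of Col1a1 chains with a single Col1a2 chain, type III consists of Col3a1 chains alone, and type V, mostly with Col5a1 and Col5a2 chains, lies in the core of the fibril and sets its width. Type VI combines Col6a1, Col6a2 and Col6a3 chains into beaded filaments between fibril and cell, and type XII sits on the fibril surface. In the injured liver the activated stellate cell is known as the main source of types I and III.

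The libraries held 1400887 to 4773750 counts on genes, with 1743675 to 4773750 in CTR and 1400887 to 3102450 in VPA. They read the 3′ end of polyadenylated RNA, so a count stands for about 1 transcript whatever its length, and levels of different chains can be set side by side as CPM (counts scaled to a common library size with TMM factors) without division by length. A count of 0 allowed up to 3 counts, which was 0.591 to 2.41 CPM depending on the library and covers counting error only. Counts of 0 on well expressed genes were more frequent in the VPA libraries: of 8695 genes with a mean of at least 10 CPM over the 7 libraries, 0.713% to 2.19% were at 0 in a CTR library and 3.46% to 9.18% in a VPA library. The slices held hepatocyte RNA, with Alb, which encodes albumin, at 1545 ± 678 CPM (SD, n = 3) without and 2328 ± 1885 CPM (SD, n = 4) with VPA, while the hepatocyte marker Ass1, the myofibroblast marker Cthrc1 and the macrophage markers Adgre1 and Marco were at 0 in all 7 libraries.

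Summed over the 10 chains, transcripts of the interstitial collagens were fewer in the slices with VPA, and most of the difference in CPM lay in types I and III. The summed level of the 10 chains was 2219 ± 762 CPM in CTR (SD, n = 3) and 826 ± 208 CPM in VPA (SD, n = 4), with CTR libraries between 1443 and 2966 CPM and VPA libraries between 647 and 1126 CPM. Type I went from 1279 ± 455 to 414 ± 62.7 CPM and type III from 597 ± 233 to 209 ± 101 CPM, again with no overlap between the groups. Type V was at 234 ± 43.5 CPM without VPA and 147 ± 63.2 CPM with it, and type VI was at 103 ± 36.7 and 50.3 ± 23.5 CPM, and for both types the ranges of the groups overlapped. The log2 fold change was below 0 for 10 of the 10 chains, against 54.2% of the 10876 genes tested. Their median log2 fold change was −1.12, against −0.057 over all genes tested, and −1.78 without CTR replicate 2, where 9 chains were tested.

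**Figure D1:**
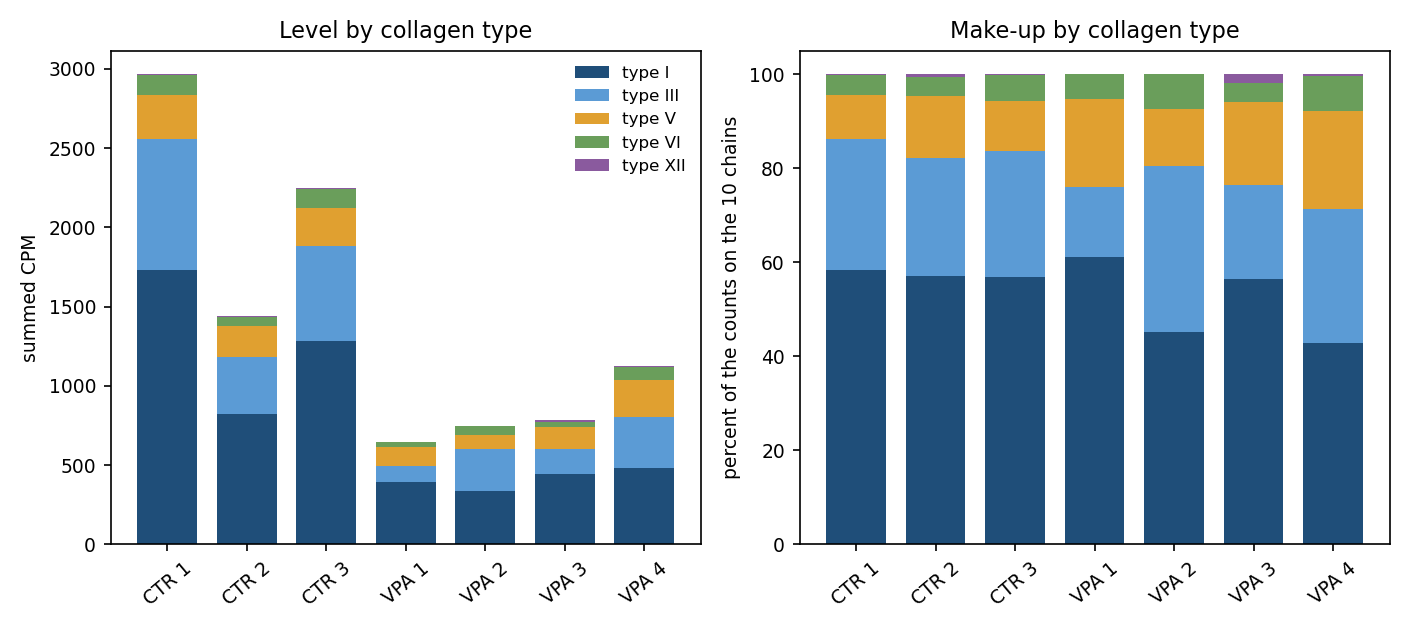
Counts on the 10 collagen chains by type in each library, as summed CPM (left) and as a percentage of the counts on the 10 chains (right). Types I and III hold most of the counts on these 10 chains in every library, and the summed level of the 4 VPA libraries, 647 to 1126 CPM, lies below that of the 3 CTR libraries, 1443 to 2966 CPM.

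In edgeR's quasi-likelihood test, 0 of the 10 chains had an adjusted p under 0.05, and 1 gene of 10876 did (0.00919%). At an unadjusted p under 0.05, Col1a1, Col1a2 and Col3a1 were lower, which is 3 of 10 chains against 4.62% of all genes, and 0 of 10 chains were higher, against 3.65%. Every VPA library lay below every CTR library for Col1a1, Col1a2, Col3a1 and Col5a3, which is 4 of 10 chains against 7.41% of all genes, and no chain had every VPA library above every CTR library (4.44% of all genes). DESeq2, the program named in the study's methods, called Col1a1 and Col1a2 lower at an adjusted p under 0.05, which is 2 of 10 chains against 0.754% of the 15261 genes to which it gave an adjusted p. All 10 chains passed the filter on low counts, and Col5a3 did so through the CTR libraries and 1 VPA library.

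**Figure D2:**
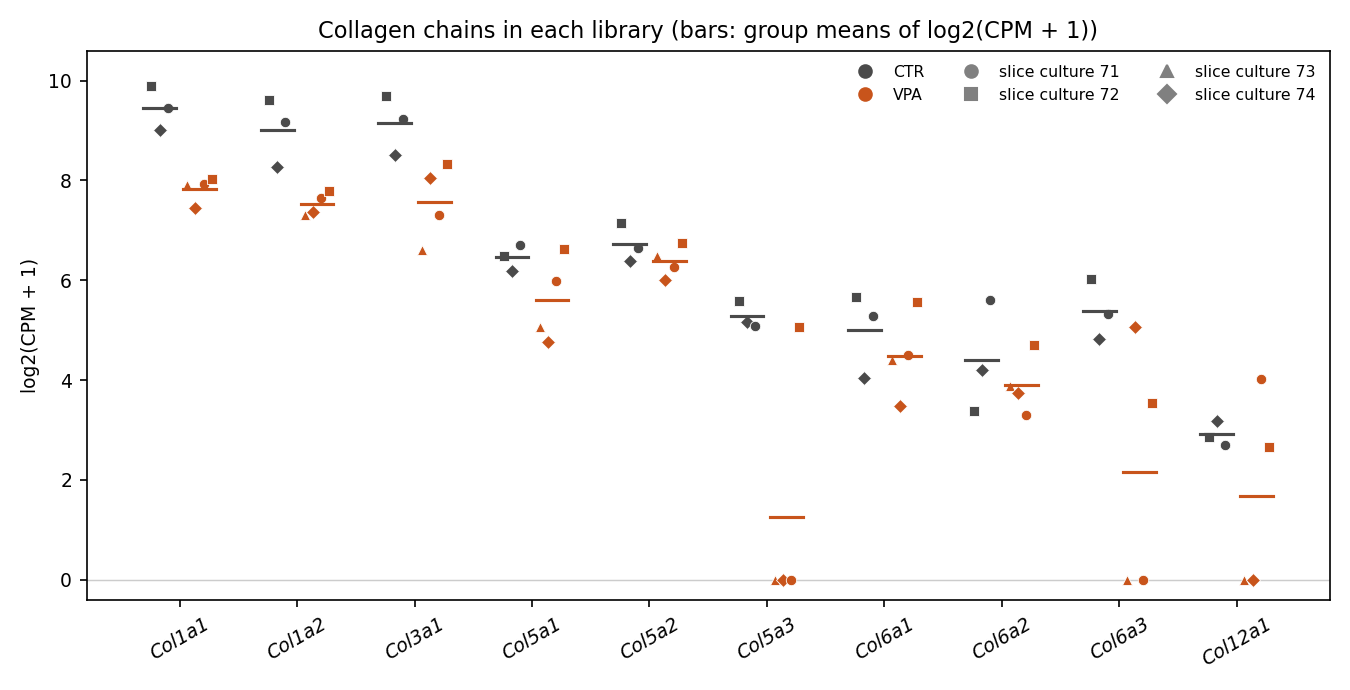
Level of each chain in each library, as log2(CPM + 1), with CTR in grey, VPA in orange, symbols for the number of the slice culture and bars for the group means. The groups lie apart for Col1a1, Col1a2 and Col3a1. Col5a3 holds 3 VPA libraries at 0 and 1 at 32.5 CPM, just below the CTR libraries, and Col6a3 holds 2 at 0 and others at 32.6 and 10.57 CPM.

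Col1a1 (ENSMUSG00000001506; GRCm38 chromosome 11, 94936224 to 94953042, + strand) encodes the chain that makes up most of type I collagen. It had 949, 515 and 704 CPM in CTR replicates 1 to 3 and 238, 173, 244 and 261 CPM in VPA replicates 1 to 4. The gap between the lowest CTR and the highest VPA library was wider than the whole range of the VPA group. Its log2 fold change was −1.66 ± 0.239 (SE), with an adjusted p of 0.112 from edgeR and 4.39e-07 from DESeq2. Col1a2 (ENSMUSG00000029661; chromosome 6, 4504814 to 4541544, + strand), the partner chain, had 783, 308 and 577 CPM in the CTR libraries and 157, 165, 199 and 221 CPM in the VPA libraries. Its groups did not overlap either, and CTR replicate 2 was again the lowest of the CTR libraries. The log2 fold change of Col1a2 was −1.58 ± 0.304 (SE), with an adjusted p of 0.213 from edgeR and 0.000539 from DESeq2.

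Col3a1 (ENSMUSG00000026043; chromosome 1, 45311538 to 45349706, + strand) encodes the single chain of type III collagen, which forms thin fibrils with type I. It had 828, 362 and 602 CPM in the CTR libraries and 96.6, 263, 158 and 320 CPM in the VPA libraries. The groups stood apart by less than for Col1a1, since VPA replicate 4 at 320 CPM came near CTR replicate 2 at 362 CPM. This gave a log2 fold change of −1.51 ± 0.439 (SE), with an adjusted p of 0.417 from edgeR and 0.0613 from DESeq2. An annotated miRNA gene, Gm47302, overlaps an exon of Col3a1 on the same strand and had 0 counts.

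The promoters of these chains are shown because several of the chains were lower together. RefSeq (GRCm38.p6) gave a promoter for 7 of the 10 genes. Col1a1, Col5a2 and Col12a1 had no entry. The 250 bases before the annotated start are printed for the 3 chains without overlap between the groups that had an entry, Col1a2 (chr6:4505368-4505617, + strand), Col3a1 (chr1:45311288-45311537, + strand) and Col5a3 (chr9:20815068-20815317, − strand). For Col1a2 the RefSeq start lies inside the gene as GENCODE places it, so the stretch printed is within the span given above. Capitals mark matches on either strand to 5 motifs, the CCAAT box (CCAAT), the GC box (GGGCGG), the TATA box (TATAAA), the AP-1 site (TGACTCA) and the Smad box (CAGAC), and no 2 matches overlap in these 3 sequences.
Col1a2: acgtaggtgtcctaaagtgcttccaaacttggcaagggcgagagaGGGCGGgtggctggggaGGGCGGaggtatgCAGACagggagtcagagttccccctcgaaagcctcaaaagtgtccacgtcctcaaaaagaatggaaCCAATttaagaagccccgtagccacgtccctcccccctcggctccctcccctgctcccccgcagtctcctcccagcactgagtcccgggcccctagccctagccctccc
Col3a1: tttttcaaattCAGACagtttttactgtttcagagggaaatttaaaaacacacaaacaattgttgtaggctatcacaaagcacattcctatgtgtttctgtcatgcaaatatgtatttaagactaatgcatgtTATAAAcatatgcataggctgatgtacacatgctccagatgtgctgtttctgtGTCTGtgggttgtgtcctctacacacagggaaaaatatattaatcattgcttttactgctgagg
Col5a3: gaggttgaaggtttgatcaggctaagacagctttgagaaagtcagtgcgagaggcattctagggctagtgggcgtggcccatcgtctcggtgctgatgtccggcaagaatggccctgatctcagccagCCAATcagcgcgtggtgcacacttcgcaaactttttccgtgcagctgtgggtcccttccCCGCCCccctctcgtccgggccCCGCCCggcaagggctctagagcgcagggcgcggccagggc
The sequences differ in base composition, with 62.0% GC in Col1a2, 35.2% in Col3a1 and 62.8% in Col5a3, against a median of 52.4% over the 32851 promoters of the table. Col1a2 and Col5a3 each hold 1 CCAAT box, starting 109 and 122 bases before the start, and 2 GC boxes. Col3a1 holds neither of these, and holds 1 TATA box, 117 bases before the start. The Smad box was found once in Col1a2, at 2 places in Col3a1 and not in Col5a3, and the AP-1 site in none of the 3. Among all promoters of this length, 33.8% hold the CCAAT box, 32.7% the GC box, 12.4% the TATA box, 42.2% the Smad box and 4.46% the AP-1 site. Among the other 4 genes with an entry, the AP-1 site was found in that of Col6a1, 90 bases before the start.

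Both type I chains were lower to a similar extent. The count of Col1a1 divided by that of Col1a2 was 1.21, 1.67 and 1.22 in the CTR libraries and 1.52, 1.05, 1.23 and 1.18 in the VPA libraries, so that all 7 libraries held more Col1a1 than Col1a2. The log2 ratio was 0.435 ± 0.265 (SD, n = 3) in CTR and 0.300 ± 0.224 (SD, n = 4) in VPA, a difference of −0.135. A difference was not detectable (two-sided exact permutation test over 35 splits, p = 0.486, adjusted p = 0.624 over 9 ratios, where 0.0286 is the smallest p possible). The interval of the difference from the same test ran from −0.675 to 0.565, so a shift of the type I chains against each other within this range could not be seen. Col1a1 against Col3a1 gave a mean log2 ratio of 0.311 ± 0.173 in CTR and 0.255 ± 0.867 in VPA. The means were close (exact permutation test, p = 0.914, interval −2.06 to 2.36), but the VPA libraries spread widely, from 0.656 times as many Col1a1 as Col3a1 counts in VPA replicate 2 to 2.47 times as many in VPA replicate 1, while the CTR libraries lay between 1.15 and 1.42.

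**Figure D3:**
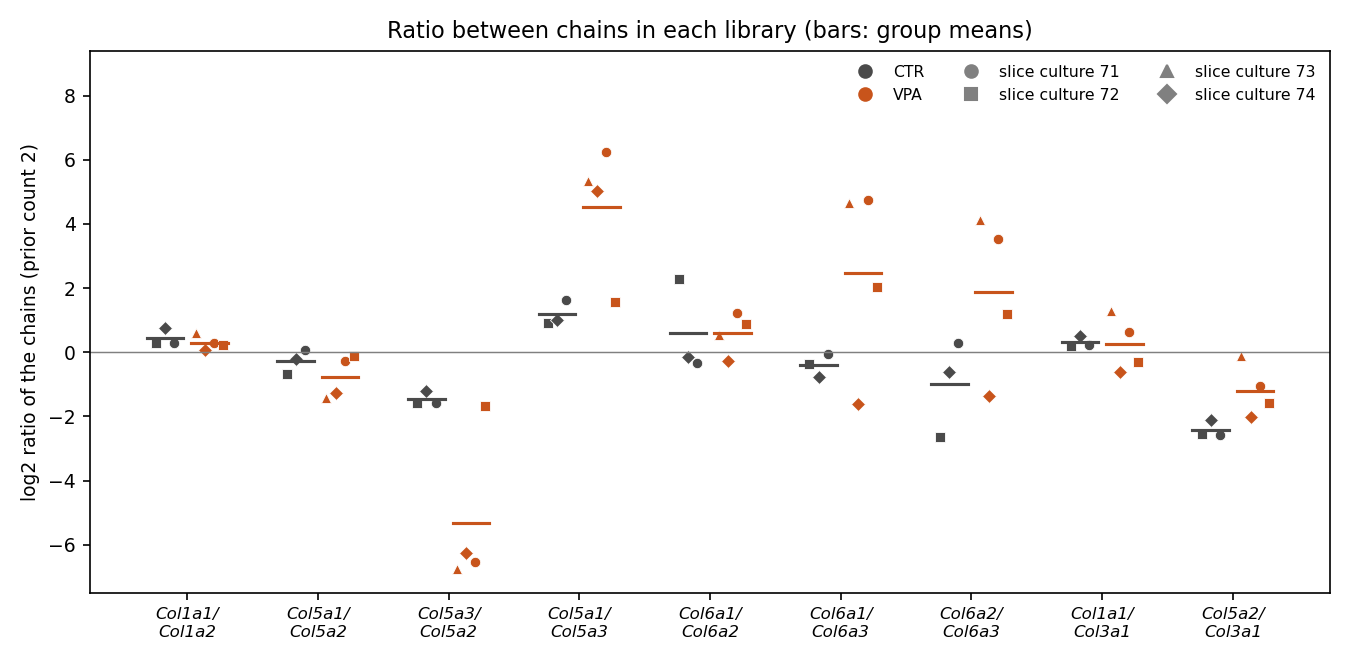
Log2 ratio between 2 chains in each library (prior count of 2), with CTR in grey, VPA in orange, symbols for the slice culture and bars for the group means. Col1a1/Col1a2 lies above 0 in all 7 libraries, between 0.0654 and 0.740, Col5a2/Col3a1 is higher in every VPA library than in every CTR library, and the ratios with Col5a3 and Col6a3 spread over several units in the VPA libraries.

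The log2 fold changes of the type V chains lay further apart, from −0.37 to −2.28. No ratio between these chains passed an adjusted p of 0.05 in the exact permutation test. Col5a2 (ENSMUSG00000026042; chromosome 1, 45374321 to 45503282, − strand), the chain shared by most type V trimers, had 141, 82.8 and 99.8 CPM in the CTR libraries and 88.8, 63.6, 76.3 and 106 CPM in the VPA libraries. The groups overlapped, and the log2 fold change of −0.37 ± 0.25 (SE) was the smallest of the 10 chains (adjusted p = 0.815 from edgeR). Col5a2 lies next to Col3a1, tail to tail on the opposite strand with 24614 bases between the genes. The count of Col5a2 divided by that of Col3a1 was 0.171, 0.229 and 0.166 in the CTR libraries and 0.919, 0.242, 0.482 and 0.330 in the VPA libraries, so every VPA library held more Col5a2 for its Col3a1 than every CTR library. The mean log2 ratio was −2.41 ± 0.258 (SD, n = 3) in CTR and −1.20 ± 0.823 (SD, n = 4) in VPA, a difference of 1.22 (exact permutation test, p = 0.0571, adjusted p = 0.257 over 9 ratios, interval −0.723 to 3.73). The interval includes 0. With 35 splits and 9 ratios, a single ratio could not reach an adjusted p under 0.05, so the adjusted p cannot decide this.

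Col5a1 (ENSMUSG00000026837; chromosome 2, 27886425 to 28039514, + strand), which starts fibril formation together with type I, had 88.3, 71.9 and 104 CPM in CTR and 32.6, 26.1, 62.6 and 98.2 CPM in VPA. VPA replicate 4 lay within the CTR range and the other 3 VPA libraries below it, with a log2 fold change of −0.69 ± 0.450 (SE) and an adjusted p of 0.793 from edgeR. The log2 ratio of Col5a1 to Col5a2 was −0.271 ± 0.374 in CTR and −0.766 ± 0.669 in VPA (exact permutation test, p = 0.314, interval −2.01 to 1.05). Col5a3 (ENSMUSG00000004098; chromosome 9, 20770050 to 20815067, − strand), an alternative type V chain, had 119, 178 and 60 counts in the CTR libraries, which is 46.9, 35.1 and 32.9 CPM. It had 0 counts in VPA replicates 1, 2 and 3 and 43 counts, or 32.5 CPM, in VPA replicate 4. The VPA group thus held 3 libraries at 0 and 1 just below the lowest CTR library. A count of 0 does not show that a transcript was missing from the slices, since Ppib, which encodes a widely expressed folding enzyme, was also at 0 in 5 of the 7 libraries and reached 119 CPM in the third CTR library and 69.5 CPM in the fourth VPA library (a gene named after its values were seen). For Col5a3 the log2 fold change was −2.28 ± 1.67 (SE), with an adjusted p of 0.847 from edgeR. The mean was 38.3 ± 7.53 CPM in CTR and 8.12 ± 16.2 CPM over all 4 VPA libraries, 4.72 times lower. Among the 8695 genes with a mean of at least 10 CPM, 1.09% were at 0 in at least 3 of the 4 VPA libraries and 3.43% in at least 1 CTR library, where none of the 10 chains was at 0. The log2 ratio of Col5a3 to Col5a2 differed by −3.85 (exact permutation test, p = 0.0571, adjusted p = 0.257), and that of Col5a1 to Col5a3 by 3.36 (p = 0.0857 in the same exact test, adjusted p = 0.257). With 3 VPA libraries at 0, the size of these differences moved with the prior count: Col5a3 to Col5a2 differed by −5.33 with a prior count of 0.5 and by −2.90 with 5, and Col5a1 to Col5a3 by 4.83 and 2.42.

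Type VI chains were at lower levels, and their differences were within the spread between libraries. Col6a1 (ENSMUSG00000001119; chromosome 10, 76708792 to 76726168, − strand) and Col6a2 (ENSMUSG00000020241; chromosome 10, 76595762 to 76623630, − strand) are neighbors with 85161 bases between them and encode the short chains of type VI. Col6a1 had 49.6, 15.6 and 37.8 CPM in CTR and 20.2, 10.1, 21.7 and 46.1 CPM in VPA, with a log2 fold change of −0.49 ± 0.578 (SE). Col6a2 had 9.46, 17.3 and 47.7 CPM in CTR and 13.7, 12.3, 8.83 and 24.9 CPM in VPA, with a log2 fold change of −0.73 ± 0.624 (SE). Both groups overlapped for both genes, with adjusted p of 0.933 and 0.884 from edgeR, and without CTR replicate 3 the log2 fold change of Col6a2 was 0.13. Col6a3 (ENSMUSG00000048126; chromosome 1, 90765923 to 90843971, − strand) encodes the long chain that completes the trimer. It had 162, 138 and 71 counts in the CTR libraries and 0, 106, 0 and 14 counts in VPA replicates 1 to 4, or 63.8, 27.2 and 38.9 CPM against 0, 32.6, 0 and 10.57 CPM. VPA replicate 2 lay above CTR replicate 2, so the groups overlapped although 2 VPA libraries were at 0, as were 4.91% of the 8695 genes in at least 2 VPA libraries and 15.7% in at least 1. The log2 fold change of Col6a3 was −1.93 ± 1.30 (SE), with an adjusted p of 0.819 from edgeR, and it was −3.61 without VPA replicate 2.

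Within type VI, the count of Col6a1 divided by that of Col6a3 was 0.778, 0.572 and 0.972 in the CTR libraries, and 0.311 in VPA replicate 2 and 4.36 in VPA replicate 4, the 2 VPA libraries with Col6a3 counts. The log2 ratio of Col6a1 to Col6a3 differed by 2.85 between the groups (exact permutation test, p = 0.229, interval −6.64 to 8.19) and that of Col6a2 to Col6a3 by 2.87 (p = 0.171 in the same exact test, interval −4.64 to 8.12). Col6a1 to Col6a2 differed by −0.016 (exact permutation test, p = 1.0, interval −2.55 to 1.54), with the widest ratio in CTR replicate 1, at 5.25. None of these 3 ratios differed beyond the spread between libraries, and the intervals were too wide to show that the type VI chains moved alike.

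Col12a1 (ENSMUSG00000032332; chromosome 9, 79598991 to 79718831, − strand), the type XII chain, had 16, 41 and 10 counts in CTR and 0, 0, 19 and 7 counts in VPA. That is 6.30, 8.08 and 5.48 CPM against 0, 0, 15.3 and 5.29 CPM, and the highest value of all 7 libraries was that of VPA replicate 3. Its log2 fold change was −0.41 ± 1.56 (SE), and no difference beyond the spread between libraries was found (adjusted p = 0.975 from edgeR), although the estimate was −3.02 with limma-voom. Of the annotated genes that overlap the 10 chains, Gm38211, within Col5a2 on the same strand but outside its exons, had 147 counts beside 961 on Col5a2 in CTR (15.3%) and 115 beside 578 in VPA (19.9%), and its part in the Col5a2 values was not tested. The other overlapping genes held at most 3 counts.

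**Figure D4:**
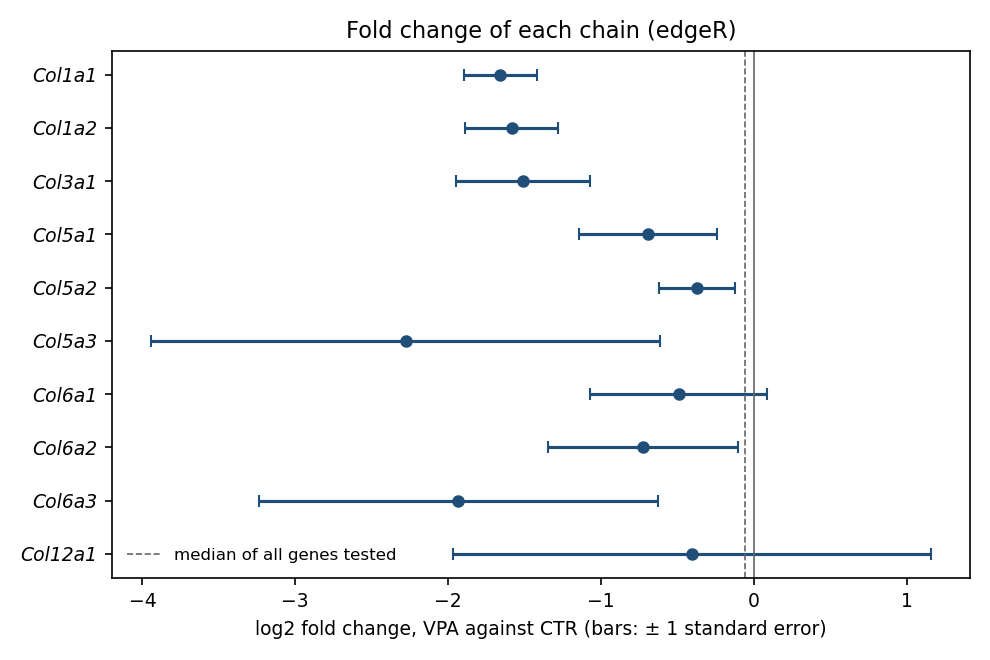
Log2 fold change of each chain with VPA in edgeR's fit, with 1 standard error to each side, the dashed line marking the median of all genes tested (−0.057). The estimates for Col1a1, Col1a2 and Col3a1, near −1.5 to −1.66, carry the smallest errors for their size, and those for Col5a3, Col6a3 and Col12a1 carry errors over 1.

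The order of the chains by mean level was the same at the top in both groups. In CTR the mean levels ran from Col1a1 (723 CPM) over Col3a1 (597), Col1a2 (556), Col5a2 (108), Col5a1 (88.1), Col6a3 (43.3), Col5a3 (38.3), Col6a1 (34.4) and Col6a2 (24.8) to Col12a1 (6.62 CPM). In this order the ranges over the 3 libraries did not overlap between Col1a2 and Col5a2, between Col5a1 and Col6a3 and between Col6a2 and Col12a1, and overlapped between all other neighbors, although Col1a1 exceeded Col3a1, and Col3a1 exceeded Col1a2, in 3 of 3 libraries. In VPA the order was Col1a1 (229 CPM), Col3a1 (209), Col1a2 (185), Col5a2 (83.6), Col5a1 (54.9), Col6a1 (24.5), Col6a2 (14.9), Col6a3 (10.8), Col5a3 (8.12) and Col12a1 (5.13 CPM). There only Col1a2 and Col5a2 were neighbors without overlap. Col1a1 exceeded Col3a1, and Col3a1 exceeded Col1a2, in only 2 of 4 libraries each.

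**Figure D5:**
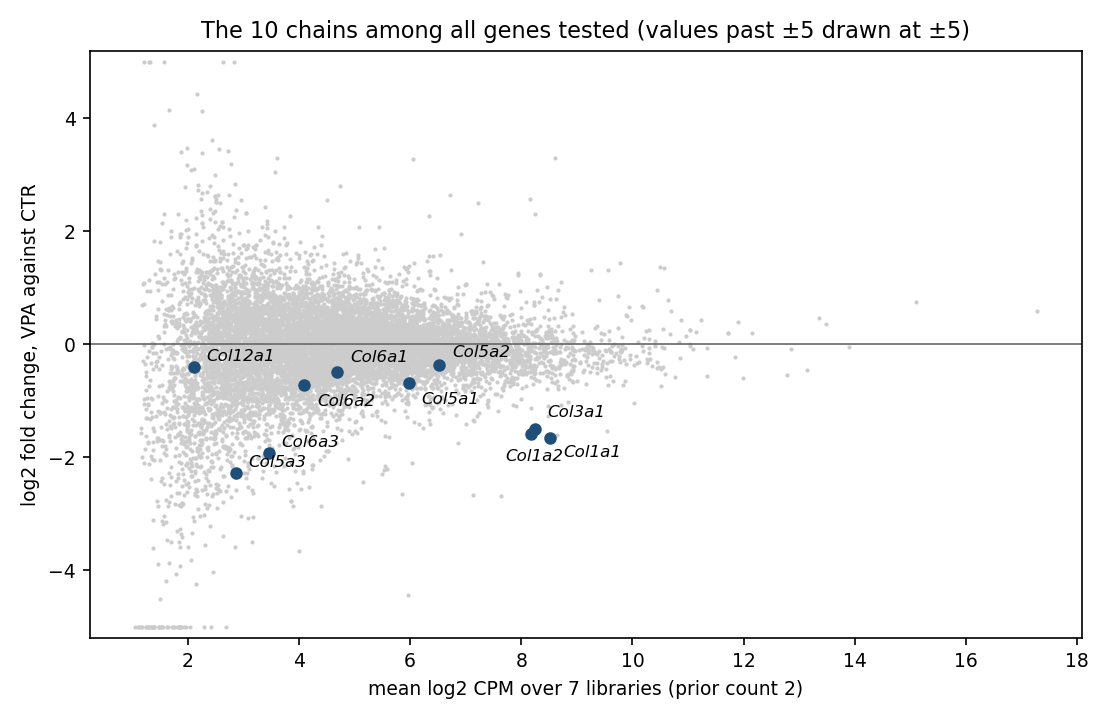
Log2 fold change with VPA against mean level for the 10876 genes tested (grey) and the 10 chains (blue), with values past ±5 drawn at ±5. Col1a1, Col1a2 and Col3a1 are the chains of highest level, at −1.66, −1.58 and −1.51, and all 10 chains lie below 0.

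The make-up of the collagen transcripts also differed between libraries. Type I held 56.9% to 58.4% of the counts on the 10 chains in CTR libraries and 42.9% to 61.1% in VPA libraries. Type V held 9.33% to 13.2% in CTR and 12.1% to 21.0% in VPA. Of the counts on all 44 collagen genes of the table, the 10 chains held 71.8% to 80.1% in CTR libraries and 55.3% to 69.7% in VPA libraries. The ranges did not overlap, and the lowest share was that of VPA replicate 1, at 55.3% (95% Wilson interval 53.0% to 57.6%, counting error only).

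Labels give CTR and VPA libraries of slice cultures 71, 72 and 74, and only a VPA library (replicate 1) of slice culture 73. What the number marks is not stated. Within slice culture 71, 9 of 10 chains were lower with VPA, within slice culture 72 it was 8, and within slice culture 74 it was 9. The share of all genes that were lower within the same pairs was not determined. These counts include chains at 0 in the VPA library, Col5a3 and Col6a3 in slice culture 71 and Col5a3 and Col12a1 in 74. The log2 difference of Col1a1 was −1.52, −1.86 and −1.57 in slice cultures 71, 72 and 74, that of Col1a2 was −1.53, −1.82 and −0.90, and that of Col3a1 was −1.92, −1.37 and −0.46. Col5a2 differed by −0.38, −0.42 and −0.38, the same direction and nearly the same size in all 3. The chains that were higher with VPA were Col12a1 in slice culture 71, Col5a1 and Col6a2 in 72 and Col6a3 in 74.

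The cells that make collagen were followed with marker lists that hold no collagen. The 12 markers of stellate cells summed to 267 to 528 CPM in CTR libraries and to 214 to 520 CPM in VPA libraries, and of the 11 that were tested 8 were lower and 3 were higher, none past an adjusted or unadjusted p of 0.05. Among them Lrat, which stores retinoid in the quiescent cell, was at 45.0 ± 15.7 CPM (SD, n = 3) in CTR and 19.9 ± 11.2 CPM (SD, n = 4) in VPA, and Pdgfrb, a receptor of activated cells, at 19.6 ± 2.82 and 9.21 ± 12.8 CPM, with 0 counts in 2 VPA libraries. The most abundant markers of the list were higher on average, Ecm1 at 81.0 ± 32.9 and 98.5 ± 28.3 CPM and Rgs5, of pericytes and stellate cells, at 79.0 ± 43.2 and 90.7 ± 24.9 CPM, and their groups overlapped. The 10 markers of activated stellate cells or myofibroblasts summed to 1136 to 1897 CPM in CTR and 853 to 1394 CPM in VPA, with 7 of 9 tested genes lower. The 2 that were higher were Timp1, at 89.3 ± 22.3 and 114 ± 14.2 CPM, and Thbs2, at 3.88 ± 2.78 and 5.12 ± 6.30 CPM, both with overlap. Lox, Loxl1, Cthrc1, Postn, Thbs2 and Timp1 of this list also stand in the lists of collagen-related genes described further on, and Spp1 among the cholangiocyte genes. Of the markers of activated cells, Vim, an intermediate filament of mesenchymal cells, did not overlap between the groups (655 ± 63.3 and 310 ± 67.7 CPM, adjusted p = 0.193 from edgeR and 0.00162 from DESeq2), and Acta2, the smooth muscle actin of myofibroblasts, did (156 ± 30.6 and 113 ± 49.0 CPM). Type I transcripts were 2.43 to 3.45 times the stellate cell sum in CTR libraries and 0.755 to 1.85 times in VPA libraries, and 0.675 to 1.11 and 0.318 to 0.529 times the activated cell sum. Both ranges stood apart, as did those of type I alone. The stellate cell sum rests most on its abundant markers, Ecm1 and Rgs5, and the part of cell number in these ratios was not tested.

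The other cell types are given for the same libraries. The summed CPM ranged from 65.8 to 112 in CTR and 68.6 to 103 in VPA for 10 genes of portal fibroblasts or mesothelium, from 6148 to 12380 and 4042 to 11710 for 10 hepatocyte genes, and from 216 to 246 and 69.2 to 253 for 8 endothelial genes. It ranged from 222 to 331 and 200 to 461 for 8 macrophage genes, and from 272 to 615 and 258 to 741 for 7 cholangiocyte genes. The ranges of CTR and VPA overlapped for each list. Of the 6 endothelial genes tested 4 were lower and 2, Oit3 and Lyve1, were higher, none at an unadjusted p under 0.05. Cdh5, a junction protein, was the only one without overlap (73.8 ± 7.66 and 14.0 ± 16.3 CPM), with 0 counts in 2 VPA libraries. The part of these cell types in the levels of the 10 chains was not tested.

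Genes that work with the fibrillar collagens were grouped into 4 lists. Of 34 other collagen chains, 9 passed the filter on low counts, and 7 were lower and 2 higher, with a median log2 fold change of −0.42. Col4a1, of the basement membrane, was at 273 ± 33.5 CPM without VPA and 168 ± 10.55 CPM with it without overlap (log2 fold change −0.70 ± 0.138, SE, adjusted p = 0.227 from edgeR and 0.00977 from DESeq2). Col15a1, a chain beside basement membranes, was at 18.6 ± 7.05 CPM in CTR and at 0 in all 4 VPA libraries (adjusted p = 0.210 from edgeR and 3e-05 from DESeq2). With 3 counts allowed over the group, this was at least 45.7-fold lower by counting error alone. The bound leaves out the spread between libraries and the more frequent zeros of the VPA libraries. Col15a1 passed the filter on low counts through the CTR libraries alone. Col8a1, a short-chain collagen, was at 33.6 ± 0.705 and 17.6 ± 10.4 CPM, and Col11a1, a fibrillar chain near to type V, was low in both groups at 4.07 ± 1.65 and 8.07 ± 5.45 CPM.

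Of 37 genes for folding, processing and crosslinking of collagen, 26 were tested, with 17 lower, 9 higher and a median log2 fold change of −0.36. Pcolce, which speeds the removal of the C-terminal end piece of procollagen, was at 34.3 ± 15.8 CPM without VPA and 1.69 ± 3.38 CPM with it without overlap (adjusted p = 0.487 from edgeR). Fkbp10, a chaperone, was at 12 ± 10.4 and 1.63 ± 3.26 CPM, Loxl1, a crosslinking enzyme, at 13.5 ± 6.24 and 3.02 ± 6.04 CPM, and Plod1, a lysyl hydroxylase, at 71.8 ± 6.89 and 33.7 ± 35.5 CPM, all with overlap. Of 26 fibril-surface and fibril-organizing proteins, 15 were tested, with 10 lower, 5 higher and a median of −0.32. Sparc, a collagen-binding matrix protein, was at 1610 ± 365 CPM without VPA and 782 ± 201 CPM with it, and Tnc, which encodes tenascin C, at 55.1 ± 4.51 and 24.3 ± 4.91 CPM. Both lay apart between the groups, with adjusted p of 0.295 and 0.244 from edgeR and 0.00962 and 0.0375 from DESeq2. Aebp1, a collagen-binding protein, was at 42.6 ± 10.96 and 14.7 ± 18.5 CPM, and Abi3bp at 4.99 ± 8.65 and 11.9 ± 15.2 CPM.

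Of 22 collagen receptors and degrading enzymes with their inhibitors, 11 were tested, with 10 lower, 1 higher and a median of −0.16. Mmp14, a membrane collagenase, was at 256 ± 46.9 CPM without VPA and 122 ± 15.4 CPM with it without overlap (log2 fold change −1.06 ± 0.175, SE, adjusted p = 0.142 from edgeR and 0.000584 from DESeq2). Mmp13, a collagenase, was at 36.9 ± 10.5 and 15.0 ± 10.7 CPM, Mmp2 at 8.17 ± 4.27 and 3.84 ± 5.71 CPM, and the collagen receptor Itga2 at 15.1 ± 5.24 and 7.19 ± 8.32 CPM. Across the 4 lists edgeR gave an adjusted p under 0.05 to 0 genes, and at an unadjusted p under 0.05 there were 3, 3, 2 and 3 genes lower and 0 higher in the order of the lists, beside 4.62% of all genes lower and 3.65% higher. DESeq2 gave an adjusted p under 0.05 to 2, 0, 2 and 2 genes, all lower, against the 0.754% of all genes given above. Among these Col15a1 and Mmp9, a gelatinase, were at 0 in all 4 VPA libraries and entered through the CTR libraries alone, and Mmp9 (8.27 ± 2.42 CPM in CTR), named after its values were seen, did not pass edgeR's filter.

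The genes nearest in pattern to Col1a1, Col1a2 and Col3a1 were found by the root mean square difference of log2 CPM over the 7 libraries, each gene centered on its own mean, among 8686 other genes with a mean of at least 10 CPM. They were Limd2 (0.245), Mpdu1 (0.305), Gtf3c6 (0.306), Tapbpl (0.329) and Mmp14 (0.333), while the 3 chains themselves lay at 0.25, 0.126 and 0.333 from their common mean. Limd2 was at 59.5 ± 17.9 CPM without VPA and 20.6 ± 7.39 CPM with it, and Tapbpl at 49.6 ± 11.6 and 14.8 ± 1.92 CPM. Of the other chains, Col5a1 lay at 0.600 (rank 343 when set among the 8686 genes), Col5a2 at 0.652 (571), Col6a1 at 0.716 (1035) and Col6a2 at 0.960 (4070). Col12a1, Col6a3 and Col5a3 lay at 1.37, 1.89 and 2.05 (ranks 6928, 7957 and 8144).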

How the data were processed

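RNA of mouse PCLS on day 3 of culture, 3 CTR and 4 VPA libraries, was analyzed. The authors prepared 3′ end libraries with the QuantSeq forward kit, sequenced single-end reads, used FastQC for quality control and trimming, STAR for mapping to GRCm38.p6 and StringTie for assembly, and deposited raw counts of reads per Ensembl gene, without normalization. The counting program, its use of strand and of reads with several matches are not given in the sources used here. STAR, StringTie and mm10 are also named in the submitters' processing notes.

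Symbols and coordinates came from GENCODE M21 (GRCm38). No row lacked a gene. Counts were tested with edgeR 4.0.16 in R 4.3.3 (TMM, filterByExpr, robust quasi-likelihood fit, condition as the only term, 10876 genes, Benjamini-Hochberg adjustment, threshold 0.05). The standard error is the log2 fold change over the root of F. Log2 CPM and chain ratios used a prior count of 2. The 9 ratios were compared by exact permutation (two-sided, 35 possible splits), and intervals hold the shifts which that test did not refuse at 0.05. P-values measure the spread between these libraries. Libraries of a group differed by more than sampling noise (chi-square per degree of freedom 13.2 to 24.6), and each was counted as 1 replicate. PCR copies were not marked, so intervals cover counting error only.

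Alternatives were DESeq2 1.42.0, limma-voom (limma 3.58.1), other normalizations and filters, a fit without robust dispersion, blocks by slice culture or replicate number, other prior counts and leaving out each library. The code was tested on simulated data of this size, where DESeq2 found more of the changed genes than edgeR and also called more of the unchanged ones, both at the dispersion of these libraries and at a lower one. At the former, edgeR missed most of the changed genes. The genes and lists were chosen with earlier results of these data known. Named were the 10 chains, from each of the 4 lists the 4 largest fold changes among genes that reached a mean of 5 CPM in either group, and the 5 genes nearest in pattern. Marker genes were named beside a result.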

Additional observations from a re-analysis of the deposited data

Results flagged for a closer look

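Of 19 measures in the 4 VPA libraries (10 chains, 9 ratios), 2 had a library far from the others, where chance gives about 1 in 20 (a share of 0.05). Both were VPA replicate 4. Col5a3 was at 32.5 CPM there and at 0 in the other 3 VPA libraries, and the log2 ratio of Col5a3 to Col5a2 was −1.68 there and between −6.75 and −6.27 in the others. The measures share the same Col5a3 counts. At VPA replicate 4, 4.13% of the 8695 genes with a mean of at least 10 CPM were at 0, against 3.46% to 9.18% in the other VPA libraries. The part of this in the result was not tested.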

How the results depend on the processing

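The number of chains with an adjusted p under 0.05 was 0 in edgeR's fit and moved to 2 with DESeq2 (1.01% of all genes called in either direction), 1 without a filter on low counts (0.0383%), 2 among genes with at least 10 counts in every library (7 chains tested, 0.541%) and 3 at an unadjusted p under 0.05. In these fits Col1a1 passed the threshold with DESeq2 (log2 fold change −1.67), without a filter (−1.76) and with at least 10 counts in every library (−1.65), and Col1a2 with DESeq2 (−1.59) and with at least 10 counts in every library (−1.57). The cause was not tested. The chains lower at an unadjusted p under 0.05 were 3, but 5 with limma-voom, where 1088 of 10876 genes were. Across the fits that each left out 1 library, they were 3 to 5, with 5 without VPA replicate 4 (6.22% of all genes), and no chain passed an adjusted p of 0.05 (0 to 0), nor did more than 2 of all genes in any of these fits. The log2 fold change of Col1a1 stayed between −1.86 and −1.43 there, that of Col1a2 between −1.89 and −1.27, that of Col3a1 between −1.79 and −1.21 and that of Col6a2 between −1.13 and 0.13. Those of Col5a1 (−1.14 to −0.44), Col5a2 (−0.54 to −0.14), Col6a1 (−1.0 to −0.13), Col6a3 (−3.61 to −1.51) and Col12a1 (−2.01 to −0.0025) kept their sign. Col5a3 ran from −9.63, without VPA replicate 4, to −1.82, and was at −5.57 with limma-voom (3 of its 4 VPA libraries are at 0). With limma-voom Col12a1 was at −3.02 and Col6a3 at −2.96. The median log2 fold change of the chains was −1.78 without CTR replicate 2 (9 chains tested), −0.70 with at least 10 counts in every library (7 chains) and −1.64 with the block by replicate number. Ratios near 0 changed sign: Col1a1/Col1a2 ran from −0.236 to 0.0178, Col6a1/Col6a2 from −0.483 to 0.828 and Col1a1/Col3a1 from −0.402 to 0.231. The chains without overlap between the groups were 4 to 5 there, and 9.42% to 14.0% of all genes had every VPA library below every CTR library. Col12a1 was not tested without CTR replicate 2 or VPA replicate 2, where it did not pass the filter.

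The deviations of libraries with the same slice culture number correlated by 0.107, 0.0256 and 0.0546 (71, 72 and 74). For replicate numbers 1 to 3 the deviations correlated by −0.0539, 0.0546 and 0.107. Replicates 2 and 3 pair the same libraries as slice cultures 74 and 71, so these values are no separate check. They cannot decide whether libraries of a slice culture share more than a number, and the main fit was left without a block. With the replicate block by slice culture, 0 chains and 0 of all 10876 genes had an adjusted p under 0.05, and the log2 fold change was −1.66 for Col1a1, −1.42 for Col1a2 and −1.25 for Col3a1. In that fit 4 chains were lower at an unadjusted p under 0.05 (4.67% of all genes), with Col5a2 as the added one at −0.40 ± 0.133 (SE). Within slice cultures the Col6a1/Col6a2 ratio differed by 0.0047. With the replicate block by replicate number 0 chains and 0 of all genes passed an adjusted p of 0.05, and 7 chains were lower at an unadjusted p under 0.05, against 5.63% of all genes in that fit, where the log2 fold change was −3.42 for Col12a1, −4.40 for Col6a3 and −9.50 for Col5a3. Col5a3, Col12a1 and the type VI chains had at most 178 counts in any library, and whether depth or other spread between libraries sets their errors was not tested.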
